A study of Mus musculus with 3 samples.

Results

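The cells described here are laryngeal cells with abundant transcripts of Muc5b, the gel-forming mucin of airway mucus, that were taken as goblet-like cells. A barcode was kept when it held 500 to 8000 detected genes, 1000 to 40000 unique molecular identifiers (UMIs, counts of captured transcripts), at most 8% mitochondrial UMIs and not UMIs of all 4 of Krt5, Ltf, Scgb3a1 and Dcn. Among kept barcodes, a Muc5b-high cell had at least 3 Muc5b UMIs and at least 3 per 10,000 UMIs of the cell, under 30 per 10,000 for the summed gland genes Dcpp1, Dcpp2, Dcpp3 and Dmbt1, and under 50 per 10,000 for Scgb1a1, the secretoglobin of club cells. This rule gave 282 cells of 41033 kept and 60530 deposited barcodes. The cells were selected on the measured UMI counts of these genes, so Muc5b and the other genes of the rule are given as description only.

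The mice carried Lrig1CreERT2/+; ROSA26CAG−LSL−tdTomato/+, in which tamoxifen activates a Cre driven from the Lrig1 locus and recombined cells turn on the red reporter tdTomato. Tamoxifen was given on 2 consecutive days, and larynges were taken 24 hours after recombination, dissociated and sorted for tdTomato. Each of the 3 libraries pooled 10 larynges from 5 male and 5 female mice, and the age of the mice is not given in the sources used here. All 3 libraries belong to one group with the same genotype and treatment, so comparisons were made between groups of cells within libraries, with the library as replicate (n = 3). Neither tdTomato nor Cre is among the 33696 measured features, and no check of the sort against its reporter was possible. The comparison cells came through the same sort.

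Goblet cells make and release mucus. Gel-forming mucins are large proteins that are folded and linked by disulfide bonds in the endoplasmic reticulum, heavily O-glycosylated in the Golgi and packed into granules, often together with small trefoil factor peptides. In mouse airways MUC5B is the constitutive mucin of surface secretory cells and of submucosal gland mucous cells, whereas MUC5AC is made mainly by surface goblet cells and rises with type 2 inflammation. The transcription factor SPDEF drives goblet cell differentiation, and the protein disulfide isomerase AGR2 is needed for mucin folding.

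The libraries held 211727921, 147898790 and 413632222 UMIs in 18068, 10816 and 31646 barcodes. Libraries 1, 2 and 3 gave 123, 50 and 109 Muc5b-high cells, or 0.980% (95% Wilson interval 0.822 to 1.17), 0.700% (0.532 to 0.922) and 0.511% (0.423 to 0.616) of kept barcodes, with a mean of 0.730% ± 0.236 (SD, n = 3). These intervals cover counting error only. Libraries 1 and 3 do not overlap in this share, and library 2 overlaps both at its limits. The Muc5b-high cells had a median of 14352, 6651.5 and 9537 UMIs in libraries 1, 2 and 3, against 13078, 17932.5 and 14403 in the other Epcam-positive cells, so in library 2 they were shallower by the widest margin. An Epcam UMI was found in 265 of the 282 cells. A doublet caller marked 23 of them, 8, 2 and 13 by library. Among the 153 barcodes that kept cells of different libraries shared, 4 belonged to Muc5b-high cells. Library 3 stood apart for basal cell RNA: the basal cell keratin Krt5, an exclusion gene of the rule, was found in 16.3, 16.0 and 54.1% of the Muc5b-high cells of libraries 1, 2 and 3, and the same order held in fibroblasts at 17.2, 11.1 and 37.9%. The summed level of the 15 basal markers other than Krt5 was 1298, 1201 and 4004 CPM (UMI counts scaled to a common library total) in the Muc5b-high cells, against 7153, 7344 and 11139 CPM in the other Epcam-positive cells.

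Muc5b itself reached 4802, 4374 and 5246 CPM in the summed Muc5b-high cells of libraries 1, 2 and 3, and 44.2, 31.3 and 12.5 CPM in the other Epcam-positive cells. The gene lies at chr7:141392807-141426821 on the plus strand (GRCm39). The median cell had 14.0, 19.1 and 19.9 Muc5b UMIs per 10,000, and single cells held up to 864, 480 and 917 Muc5b UMIs. Muc5b was therefore spread over a wide range inside the group. In cell types that should lack the mucin, a Muc5b UMI was found in 0.905% to 5.13% of endothelial cells, fibroblasts and muscle satellite cells at median depths of 4002 to 10857 UMIs, and 0 of these cells passed the Muc5b limits of the rule. The edge of the rule was viewed in cells with an Epcam UMI. There the 16 Muc5b-high cells with 3 Muc5b UMIs had Agr2 in 62.5% and Spdef in 6.25% of cells. Outside it lay 31 kept cells with 2 Muc5b UMIs, at least 2 per 10,000 and values within the gland and Scgb1a1 limits. They had Agr2 in 64.5% and Spdef in 9.68%. Inside and outside the limit, the club cell secretoglobin Scgb3a2 was found in 87.5% and 58.1% of cells, more often than Gp2, in 18.8% and 12.9%. The same order held in all other Epcam-positive cells of libraries 1, 2 and 3, with Scgb3a2 in 44.9, 33.0 and 45.4%. Gp2 was found in 3.26, 1.95 and 1.89% of them.

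The goblet label was set beside 3 marker genes that the rule did not use. Like the cells, these markers were chosen with earlier results of these data known, so they are not an independent check. Agr2 was detected in 86.2, 82.0 and 91.7% of the Muc5b-high cells of libraries 1, 2 and 3, against 21.4, 21.0 and 27.4% of the other Epcam-positive cells and 0.905% to 10.3% of endothelial cells and fibroblasts. Spdef was detected in 40.7, 44.0 and 38.5%, against 3.30, 3.27 and 2.94%. Gp2, a zymogen granule membrane glycoprotein known from acinar, M and some mucous cells, was detected in 43.1, 68.0 and 56.0%, against 3.26, 1.95 and 1.89%. The groups did not overlap for any of the 3 genes in any library, although the Muc5b-high cells of library 2 were the shallower ones. The markers were shared with the most similar cells, since Gp2 was found in 49.3, 47.9 and 46.2%, Spdef in 26.8, 45.2 and 33.7% and Agr2 in 64.8, 56.2 and 65.8% of gland acinar cells, and Agr2 in 72.4, 59.1 and 67.1% of Scgb1a1-high club cells. In summed counts, Spdef was at 84.2, 172 and 90.0 CPM in Muc5b-high cells and 3.23, 2.34 and 2.37 CPM in the others (log2 fold change 5.82, SE 0.35, edgeR adjusted p = 5.8e-05). Agr2 was at 1165, 1109 and 2039.5 CPM against 61.3, 37.3 and 63.5 CPM (log2 fold change 5.12, SE 0.30, edgeR adjusted p = 5.8e-05). Gp2 was at 1825, 2450.5 and 1242 CPM against 21.5, 25.7 and 10.5 CPM (log2 fold change 7.01, SE 0.50, edgeR adjusted p = 0.00012). All 3 markers rose in every library. Most of the Muc5b-high cells nevertheless had no Spdef UMI, and the clusters described next show that the label covers cells of more than one kind.

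The promoters of these 3 markers are shown because the markers rose together in the summed counts. Within single cells they did not always go together, and 77 of the 148 Muc5b-high cells with Gp2 had Spdef. Each is the stretch of 200 bases before the RefSeq start of the gene in GRCm38.p6, written on the gene's own strand, with capitals marking every match to the motifs searched. The 6 motifs, searched on both strands, were an ETS site of the SPDEF type (ccggat), forkhead sites (tgtttac and tgtttgc), the ACGTG core bound by CREB3 and XBP1 family factors (acgtg), the TATA box (tataaa) and the CCAAT box (ccaat), and matches of different motifs do not overlap in these windows. The Spdef window lies at chr17:27728952-27729151 on the minus strand, that of Agr2 at chr12:35992725-35992924 on the plus strand and that of Gp2 at chr7:119459273-119459472 on the minus strand.
Spdef: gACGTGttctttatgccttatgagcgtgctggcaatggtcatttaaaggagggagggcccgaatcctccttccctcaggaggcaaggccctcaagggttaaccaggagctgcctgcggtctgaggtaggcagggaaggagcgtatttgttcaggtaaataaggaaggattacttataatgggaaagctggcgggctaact
Agr2: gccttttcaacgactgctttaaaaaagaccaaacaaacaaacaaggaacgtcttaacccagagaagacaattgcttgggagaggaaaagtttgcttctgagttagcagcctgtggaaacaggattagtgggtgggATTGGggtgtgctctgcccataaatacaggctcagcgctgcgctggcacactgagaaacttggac
Gp2: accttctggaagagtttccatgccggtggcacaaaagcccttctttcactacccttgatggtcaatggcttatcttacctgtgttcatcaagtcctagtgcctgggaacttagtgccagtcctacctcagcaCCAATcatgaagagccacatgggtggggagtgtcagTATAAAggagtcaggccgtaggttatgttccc
Spdef held an ACGTG core 199 bases before the start, at the far end of its window. Agr2 held a CCAAT box on the reverse strand 65 bases before the start. Gp2 held a CCAAT box 68 bases and a TATA box 32 bases before the start. Over all 27025 promoters of the same length, ACGTG was present in 14.0%, CCAAT in 30.02%, TATAAA in 10.6%, the SPDEF-type site in 4.16%, tgtttac in 2.44% and tgtttgc in 3.33%. Of the 52 named genes that rose in the Muc5b-high cells, 31 had a window in the table, and ACGTG was present in 8 of them, TATAAA in 7, CCAAT in 7, the SPDEF-type site in 1, tgtttac in 1 and tgtttgc in 2. A match is a string of letters and was not tested for binding.

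All Muc5b-high cells were clustered together with the other Epcam-positive cells, 29067 in all, without the genes of the rule. They fell into 16 of 27 clusters, and 251 of them, 89.0%, were in 3. The clusters were found from the same cells that are described, so values between them are given as description. The first cluster held 122 Muc5b-high cells among its 651 cells and was club cell-like, with 13 of 16 club markers raised, among them Scgb3a2, Aldh1a1 and Cbr2. The second held 107 of its 550 and was led by Sbpl, Lipf and Tff2. Of 20 gland markers 6 were raised over the whole of this second cluster, of which Dcpp3, Dmbt1 and Ltf are rule genes, and its Muc5b-high cells are low in its leading genes Sbpl and Lipf, so it is called the Tff2-rich cluster and given no cell type name. The third held 22 of its 1495 and stayed unnamed, led by Tmem213, Sult1b1, Slco1a5 and the membrane mucin Muc4. The other 31 were scattered over 13 clusters, and 19 of these 31 were called doublets, against 4 of the 251. Of those 4, 3 were among the 22 cells of the third cluster. The largest scattered set was 7 cells, 6 of them called doublets, in a cluster led by the macrophage genes Cd74 and C1qa.

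**Figure D1:**
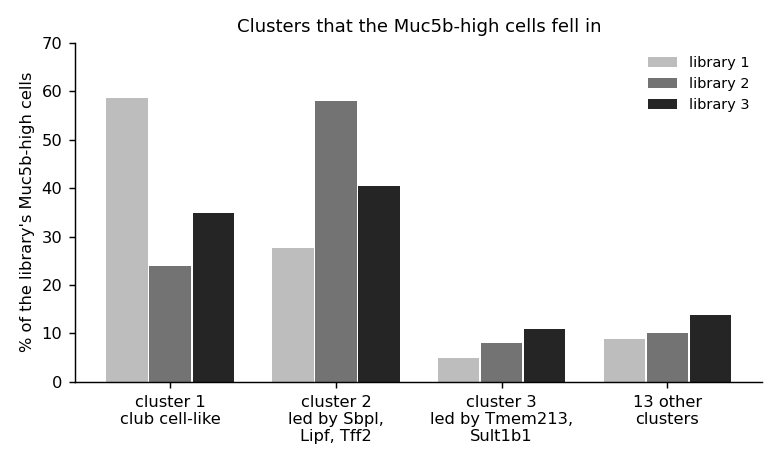
Share of each library's Muc5b-high cells, in percent, that fell in the club cell-like cluster 1, cluster 2 led by Sbpl, Lipf and Tff2, cluster 3 led by Tmem213 and Sult1b1, and the 13 other clusters, with 1 bar for each library. Cluster 1 held 58.5% in library 1 and 24.0% in library 2, and cluster 2 held 27.6% and 58.0%.

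The libraries differed in this make-up. The club cell-like cluster held 72, 12 and 38 of the Muc5b-high cells of libraries 1, 2 and 3, a mean share of 39.1% ± 17.7 (SD, n = 3). The Tff2-rich cluster held 34, 29 and 44, a mean share of 42.0% ± 15.2. The third cluster held 6, 4 and 12, a mean share of 7.96% ± 3.07. Library 1 thus had the larger share in the club cell-like and library 2 in the Tff2-rich cluster, and every summed level below is a mixture of these clusters and the 31 scattered cells in the proportions of its library.

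Levels within these clusters are given as UMIs per 10,000 UMIs of the Muc5b-high cells summed in libraries 1, 2 and 3. The rule gene Muc5b was at 10.0, 8.84 and 13.7 in the club cell-like cluster, 153, 56.2 and 113 in the Tff2-rich cluster and 41.6, 85.6 and 45.7 in the third. Tff2, the trefoil peptide packed with mucins in gland and stomach mucous cells, was at 2.13, 2.85 and 10.5, then 1423, 783 and 758, then 21.5, 134 and 12.2 in the same order. The level of library 2 in the third cluster rests on 1 of its 4 cells, at 454.5, while the other 3 were at 0, 1.96 and 2.67. The 3 libraries of the Tff2-rich cluster were above all libraries of the other clusters for Tff2, and for Muc5b that held except for library 2, whose level lay between values of the third cluster. Gp2 followed Tff2, at 69.9, 47.7 and 33.1 in the Tff2-rich cluster and at most 1.27 in any library of the others. Nearly exclusive to this cluster among the 3 were Muc19, a gel-forming mucin of mucous salivary-type glands, at 11.1, 2.50 and 4.98, and Lman1l, a cargo receptor-like lectin, at 6.74, 5.33 and 6.89, while Muc19 stayed at or below 0.106 and Lman1l at or below 0.0737 in the other clusters.

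**Figure D2:**
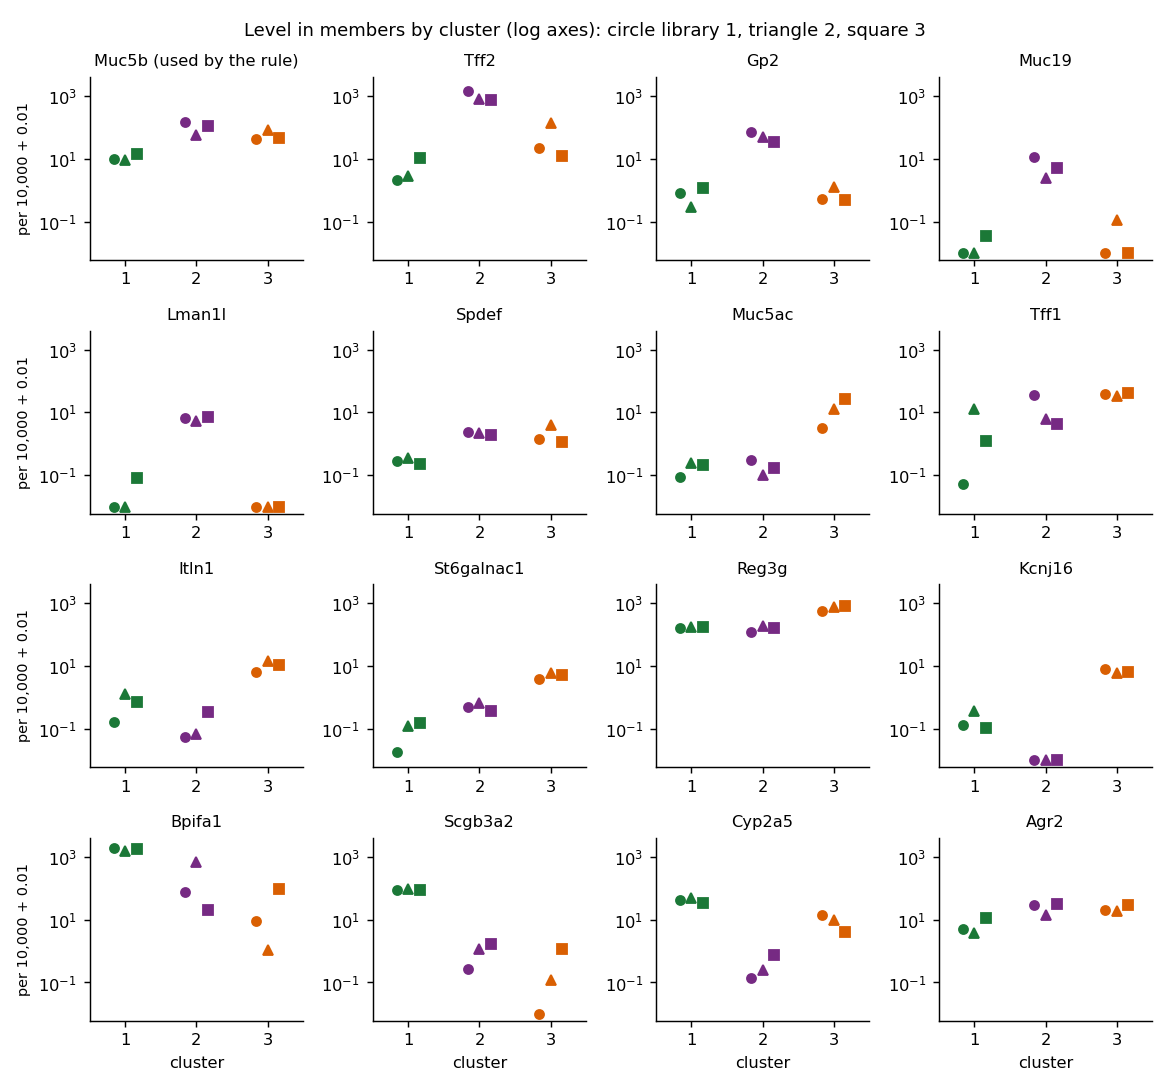
Level of 16 genes in the Muc5b-high cells of clusters 1, 2 and 3, as UMIs per 10,000 summed UMIs plus 0.01 on a log axis, with 1 point for each library and no error bars. Tff2, Gp2, Muc19 and Lman1l are highest in cluster 2, Muc5ac, Itln1, St6galnac1 and Kcnj16 in cluster 3, and Bpifa1, Scgb3a2 and Cyp2a5 in cluster 1.

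The third cluster, though it held only 22 of these cells, had the highest level of the second airway mucin. Muc5ac, the mucin of surface goblet cells, was at 3.16, 12.6 and 27.6 per 10,000 there, and at 0.0762, 0.233 and 0.197 in the club cell-like and 0.284, 0.0893 and 0.165 in the Tff2-rich cluster. Tff1, the trefoil peptide that accompanies Muc5ac in stomach and airway, was at 39.7, 33.3 and 40.6, against 0.0423, 12.8 and 1.20 and 37.2, 6.01 and 4.29. All 3 libraries of the third cluster were above the rest for Muc5ac, while for Tff1 library 1 of the Tff2-rich cluster reached into its range. Itln1, the goblet lectin intelectin, was at 6.24, 14.2 and 10.7 in the third cluster, and St6galnac1, which adds sialic acid to mucin O-glycans, at 3.99, 5.92 and 5.12. The potassium channel gene Kcnj16 was at 8.24, 5.92 and 6.35, and the antimicrobial lectin Reg3g at 586, 738 and 851 against 162, 175 and 177 and 125, 193 and 163. Foxa3, a forkhead factor of goblet cells, had a UMI in 59.1% of these 22 cells, and Spdef in 81.8%, at a median of 21092 UMIs against 6893 in the Tff2-rich cluster. Per 10,000, Foxa3 was at 0.749, 0.106 and 0.896 and Spdef at 1.41, 4.02 and 1.12, which overlap the 0.0437, 0.0595 and 0.401 and 2.32, 2.14 and 1.84 of the Tff2-rich cluster. The gland and club secretoglobin Scgb3a1 was low, at 0.915, 0.106 and 6.05, against 307, 238 and 149.9 in the club cell-like cluster. The other cells of this cluster, without high Muc5b, had Muc5ac at 0.00144, 0.00329 and 0.0249, Tff2 at 0.213, 0.0821 and 0.129 and Spdef at 0.0417, 0.0345 and 0.0278 per 10,000. Kcnj16, a leading gene of the whole cluster, was at 1.92, 1.70 and 1.07 in these other cells. Reg3g was at 32.3, 30.1 and 35.4 and St6galnac1 at 0.555, 0.268 and 0.321 in them.

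The club cell-like Muc5b-high cells were set beside the rest of their cluster in its leading secretions. Scgb1a1, the cluster's first leading gene, was low in them by the rule, at 6.89, 7.62 and 4.67 against 125, 329.7 and 161 per 10,000. Bpifa1, the abundant secreted protein of upper airway surface cells, was at 1972, 1536 and 1803 per 10,000 in them and 1615, 1654 and 1679.5 in the other cells of the cluster. Scgb3a2 was at 88.9, 98.7 and 89.0 and 72.1, 80.6 and 61.4, and Cyp2a5, a xenobiotic-metabolizing P450, at 44.0, 51.0 and 33.6 and 41.8, 35.5 and 35.4. Lysozyme Lyz2 was at 198, 186 and 209 and 157, 141 and 192. In Scgb3a2 and Lyz2 the Muc5b-high cells were above the others in every library, and in Bpifa1 and Cyp2a5 the ranges of the 2 sets overlapped. Spdef, at 0.271, 0.349 and 0.221 and 0.148, 0.170 and 0.169, differed less between them than in the Tff2-rich cluster, at 2.32, 2.14 and 1.84 and 0.505, 0.556 and 0.391. In the Tff2-rich cluster the Muc5b-high cells had Tff2 at 1423, 783 and 758 against 153, 95.8 and 45.1 and Gp2 at 69.9, 47.7 and 33.1 against 12.3, 19.4 and 6.93 in the other cells of their cluster. Some gland products were lower in them and others higher. The lipase gene Lipf was at 0.284, 0.0893 and 5.95 against 248.7, 324 and 232, Sbpl at 8.92, 0.149 and 2.55 against 204, 168 and 257 and Wfdc18 at 14.1, 1.13 and 5.71 against 41.0, 40.2 and 71.9. Ltf, a rule gene for lactoferrin, was lower as well, at 223, 399 and 285 against 583, 638 and 676. The rule gene Dcpp3 was at 0.197, 0.417 and 0.189 against 148, 214 and 216. Lower gland products in the Muc5b-high cells are thus close to the choice of the cells. Of all Sbpl UMIs of the Muc5b-high cells, 64.0% were in 1 cell. Higher in them in every library were Muc19, at 11.1, 2.50 and 4.98 against 0.479, 0.488 and 0.128, Crisp3, at 7.09, 0.774 and 8.33 against 0.408, 0 and 0.0805, and Smgc, at 1.66, 0.774 and 0.566 against 0.104, 0.0770 and 0.00894.

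Tff2 split the Muc5b-high cells almost as the clusters did. It was not left out of the clustering and is a leading gene of the second cluster, so this likeness is in part built in. No Tff2 UMI was found in 82 cells, 63 of which were club cell-like, 70 cells had up to 10 per 10,000, 31 had 10 to 100, and 99 had over 100, of which 87 were in the Tff2-rich cluster. Median Muc5b was 8.50 per 10,000 in the first band and 67.3 in the last. Since Tff2 was also found in 5.13% to 16.1% of endothelial cells and fibroblasts, 1 or a few Tff2 UMIs in a cell cannot be told apart from free RNA in the droplets.

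**Figure D3:**
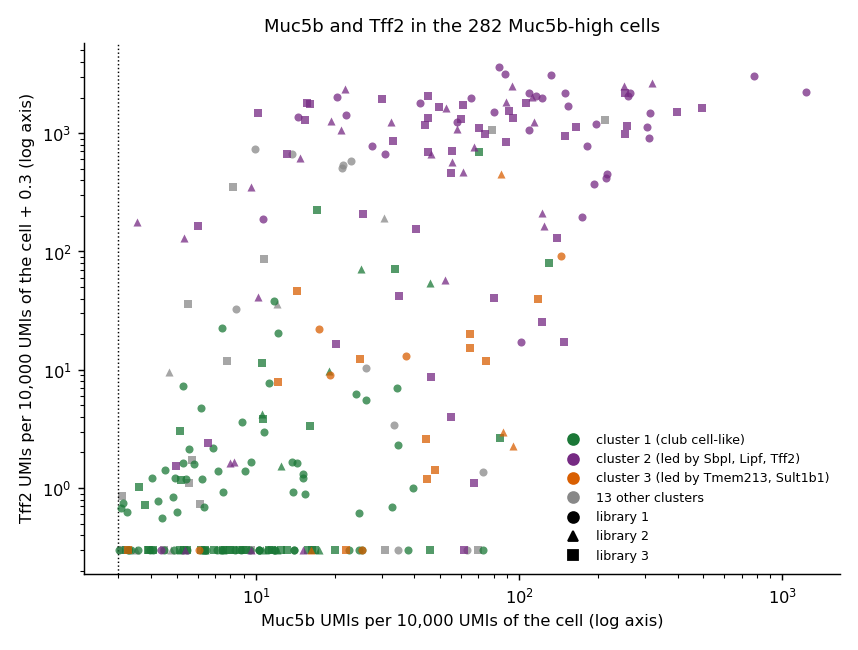
Each point is 1 of the 282 Muc5b-high cells, placed by Muc5b UMIs per 10,000 (horizontal, log axis) and Tff2 UMIs per 10,000 plus 0.3 (vertical, log axis), coloured by cluster and shaped by library. The dotted line is the limit of 3 Muc5b UMIs per 10,000, and cells with over 100 Tff2 UMIs per 10,000 are mostly of cluster 2.

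A Muc5ac UMI was found in 49 of the 282 cells and a Muc19 UMI in 72, and 12 cells had both, 24.5% of the former and 16.7% of the latter. Over all Muc5b-high cells Muc19 was found in 25.5% and Muc5ac in 17.4%, close to these shares. Nearly all Muc19-positive cells had Gp2, 71 of 72, whereas 23 of the 49 Muc5ac-positive cells had it. Tff2 was found in 71 of the 72 and in 42 of the 49. Spdef was found in 47 of the 72 and in 32 of the 49. Scgb3a2 was found in 17 of either set. Detection rests on depth, and these pairings are counts within the same cells with no test.

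Against the other Epcam-positive cells, 3104 of 17442 genes tested passed an adjusted p of 0.05 in the edgeR quasi-likelihood test on summed counts, 17.8% of genes, with 1660 higher (9.52%) and 1444 lower (8.28%) in the Muc5b-high cells. Levels are raw CPM of the summed UMIs, and fold changes are log2, Muc5b-high minus comparison, after scaling by the trimmed mean of M-values (TMM). That scaling shifts every fold change up by 0.40, and without it 5121 genes passed, of which 19.5% and not 53.5% were higher. With the library as a block 4366 passed, 2081 higher and 2285 lower. Without library 1 or without library 2, 1188 and 975 genes passed. The other Epcam-positive cells are a mixture that includes basal, ciliated, gland and club cells, so a difference is one from this mixture.

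Trefoil peptides and gel-forming mucins were among the largest rises. Tff2 was at 36427, 41642 and 26938 CPM in the Muc5b-high cells of libraries 1, 2 and 3 and at 259.6, 129.6 and 71.5 CPM in the other Epcam-positive cells (log2 fold change 8.26, SE 0.63, edgeR adjusted p = 0.00015). Tff1 was at 1186, 1095 and 1037 CPM against 3.70, 1.57 and 1.86 CPM (log2 fold change 9.28, SE 0.43, edgeR adjusted p = 3.6e-05). For both peptides each library of Muc5b-high cells was far above each library of the others. Tff2 lies at chr17:31360023-31363262, minus strand, and Tff1 at chr17:31380369-31384251, minus strand (GRCm39). Muc5ac was at 58.2, 187 and 576 CPM against 0.191, 0.0762 and 0.477 CPM (log2 fold change 10.27, SE 1.01, edgeR adjusted p = 0.00046), high in library 3 and lowest in library 1. Muc19 was at 269, 126 and 164 CPM against 0.813, 0.697 and 0.240 CPM (log2 fold change 8.84, SE 0.58, edgeR adjusted p = 8.4e-05), and its level is uncertain because Smgc, a submandibular gland gene that was also called (8.98 ± 0.72 (SE), log2), overlaps it at the same start. Of the mucin list, 8 of 12 tested genes rose and 0 fell, with a median log2 fold change of 2.49 beside -0.09 over all genes. The risers were, besides these, the membrane mucins Muc1 (2.38), Muc4 (2.61), Muc13 (2.91), Muc16 (3.76) and Muc20 (3.38) and the sialomucin Cd164. Muc2, the mucin of intestinal goblet cells, was at 0.529, 0 and 0.762 CPM and did not pass (log2 fold change 1.18, SE 1.16, edgeR adjusted p = 0.54). Muc5b is not counted in the list because the rule used it. The calls of Tff2, Tff1, Muc5ac, Muc19, Smgc, Muc16 and Muc20 held when any 1 library was left out.

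Among 26 goblet regulators tested, 11 rose and 1 fell, beside 9.52% and 8.28% of all genes, with a median of 0.53. The endoplasmic reticulum membrane factor Creb3l1 was at 259.9, 384 and 258 CPM against 11.0, 5.18 and 6.10 CPM (log2 fold change 5.75, SE 0.37, edgeR adjusted p = 8.2e-05). Foxa3 was at 12.2, 10.4 and 38.9 CPM against 0.371, 0.163 and 0.354 CPM (log2 fold change 6.48, SE 0.59, edgeR adjusted p = 0.00031). No library of the 2 groups overlapped for either factor. The secretory cell factors Bhlha15 (4.03) and Xbp1 (2.33), the gland factor Sox9 (2.24) and the ETS factor Elf5 (2.57) also rose. Foxa1, a forkhead factor of the airway in general, was at 99.0, 92.0 and 108 CPM against 114, 125 and 154 CPM (log2 fold change 0.02, SE 0.14, edgeR adjusted p = 0.97), and Foxa2 did not pass (log2 fold change 1.85, SE 0.55, edgeR adjusted p = 0.053). The single fall was in the epithelial factor Grhl2 (log2 fold change -0.50, SE 0.12, edgeR adjusted p = 0.021). The call of Grhl2 was lost without library 1, 2 or 3.

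**Figure D4:**
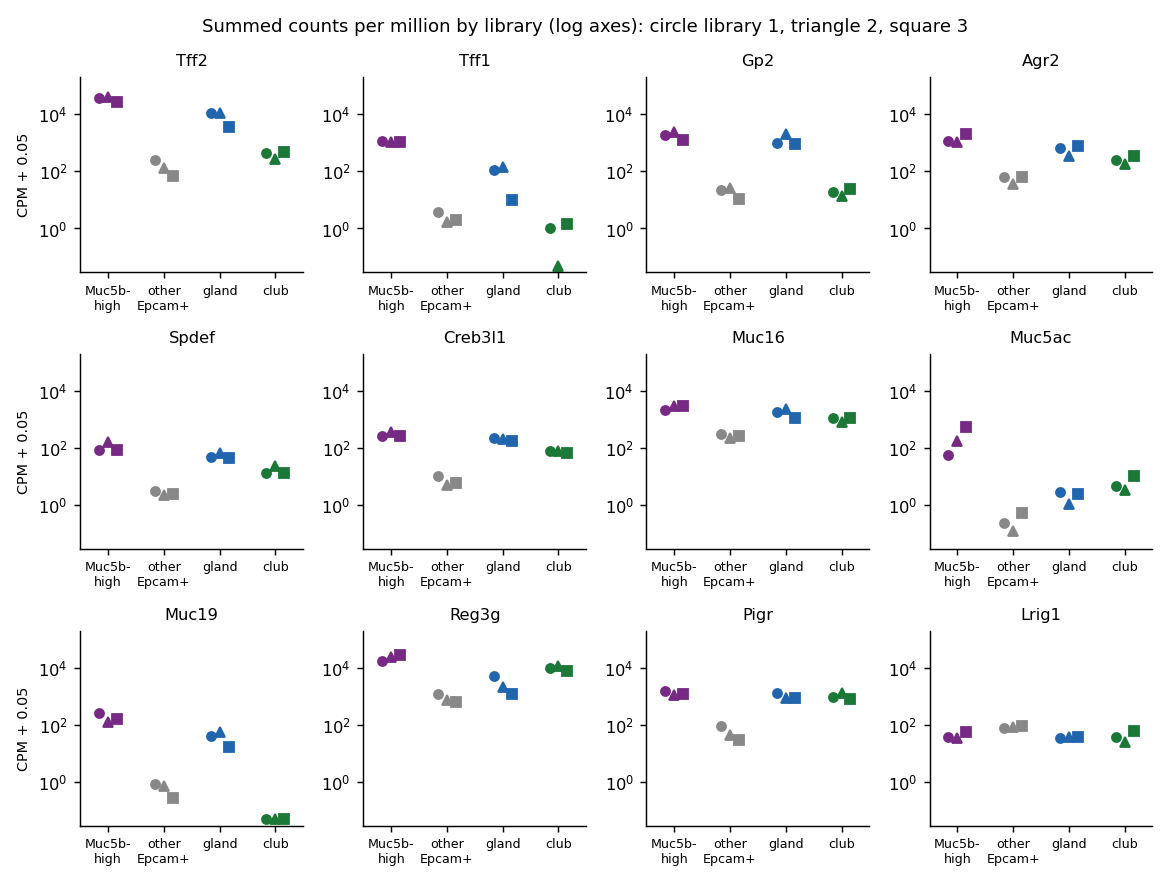
Summed level of 12 genes in CPM plus 0.05 on a log axis, in Muc5b-high cells, other Epcam-positive cells, gland acinar cells and Scgb1a1-high club cells, with 1 point for each of the 3 libraries and no error bars. Tff1 is near 1000 CPM in every library of Muc5b-high cells, and Lrig1 is lower in Muc5b-high, gland and club cells than in the other Epcam-positive cells in every library.

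Many genes of the machinery that folds and glycosylates mucins rose. Of 49 genes for folding of secreted proteins in the endoplasmic reticulum, 34 rose and 1 fell, with a median log2 fold change of 1.12. Without the composition scaling 22 rose and 1 fell, and leaving out a library left 22 to 30. The largest rises after Agr2 were the goblet form of the stress sensor Ern2 (log2 fold change 3.94, SE 0.27, edgeR adjusted p = 9.3e-05), the retrieval receptor Kdelr3 (3.61 ± 0.29 (SE)) and the disulfide isomerase Pdia5 (3.51 ± 0.20 (SE)). Ern2 was at 63.0, 57.9 and 98.4 CPM against 6.11, 4.32 and 8.53 CPM, with no overlap. Rises in the general chaperone Hspa5 were small, at 577, 484 and 869 CPM against 473, 334 and 528 CPM (log2 fold change 0.93, SE 0.22, edgeR adjusted p = 0.021), and the raw levels of the 2 groups overlapped. The single fall was in Agr3, a relative of Agr2 known from ciliated cells (log2 fold change -2.67, SE 0.66, edgeR adjusted p = 0.026). Of 47 genes for mucin O-glycosylation, 28 rose and 1 fell, with a median of 1.02, and without the composition scaling 23 rose and 2 fell. Fut2, which adds the fucose of secretor antigens, was at 41.8, 40.1 and 57.2 CPM against 1.32, 0.620 and 0.705 CPM (log2 fold change 6.13, SE 0.34, edgeR adjusted p = 5.8e-05). Galnt6, which starts O-glycans on serine and threonine, was at 115, 174 and 171 CPM against 6.34, 5.62 and 3.82 CPM (log2 fold change 5.25, SE 0.27, edgeR adjusted p = 4.3e-05). Neither gene overlapped between the groups. The core glycan enzyme B3gnt6 (4.71 ± 0.52 (SE)) and the sialyltransferase St6galnac1 (4.63 ± 0.40 (SE)) rose too, and St3gal2 fell (-1.73 ± 0.38 (SE)). The calls of Agr3 and St3gal2 were lost without library 1 or 2.

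**Figure D5:**
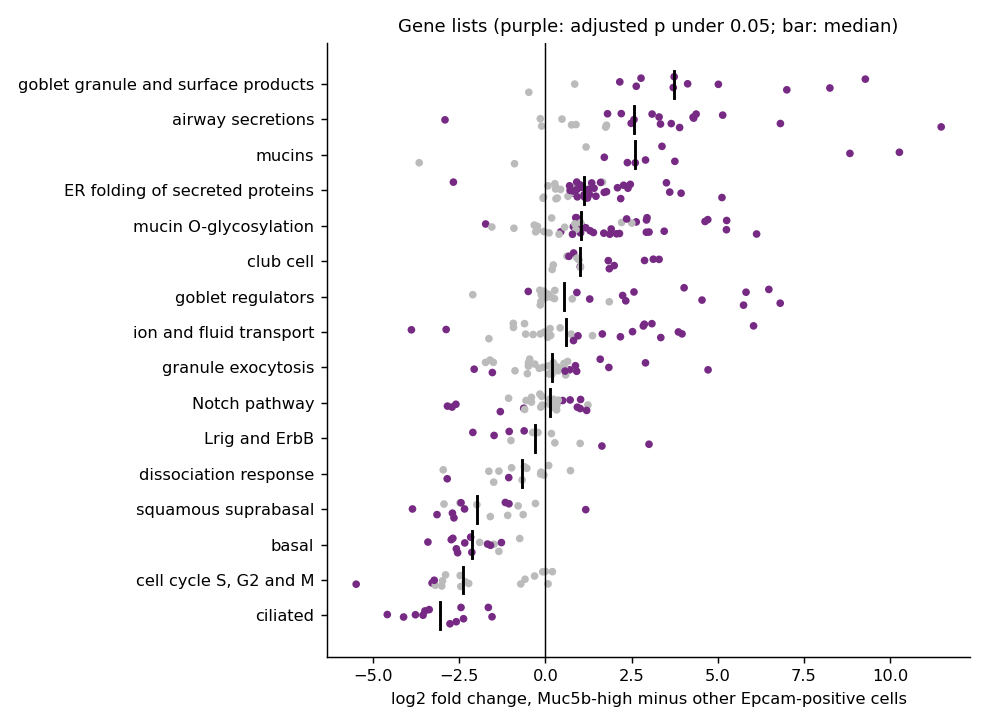
Log2 fold change of each tested gene, Muc5b-high minus other Epcam-positive cells, in 16 gene lists, purple where the adjusted p was under 0.05, with a bar at the median of the genes shown. Genes with no UMI in any Muc5b-high cell are left out. The mucins, goblet products and secretions lie mostly to the right of 0 and the ciliated and basal genes to the left.

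Goblet granule and surface products gave 10 rises among 12 genes and 0 falls, with a median of 3.72. Beside Tff1, Tff2 and Gp2 they included Pigr, the receptor that carries secretory IgA, at 1601, 1182 and 1204 CPM against 90.3, 44.5 and 29.1 CPM (log2 fold change 5.02, SE 0.46, edgeR adjusted p = 0.00031), and the mucus proteins Fcgbp (3.74 ± 0.33 (SE)) and Clca1 (4.13 ± 0.67 (SE)). Airway secretions gave 15 rises and 1 fall among 23, with a median of 2.57. Reg3g was at 17545, 24836 and 28563 CPM against 1215, 763 and 660.3 CPM (log2 fold change 5.15, SE 0.35, edgeR adjusted p = 9.3e-05), and a Reg3g UMI was also found in 12.1% to 31.7% of endothelial cells and fibroblasts. Antibacterial Lyz2 (4.30 ± 0.43 (SE)) and Pglyrp1 (4.29 ± 0.26 (SE)) rose as well. The largest fold changes of all rested on few cells. Bpifb2, at 45.0, 111 and 15.2 CPM (11.49), was found in 12 cells, and Scgb2b2, at 30.7, 1059.7 and 3.81 CPM (11.71), had 91.8% of its UMIs in 1 cell. Scgb1b3 had 50% and the secreted gland protein Crisp3 32.3% of their UMIs in 1 cell. Duox1, which makes hydrogen peroxide at the surface, fell (log2 fold change -2.91, SE 0.44, edgeR adjusted p = 0.0034). The call of Scgb1b3 was lost without library 2.

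Genes of the type 2 cytokine response of goblet cells gave 8 rises and 1 fall among 14, with a median of 3.24. The rises were Clca1, Muc5ac, Itln1, Fcgbp, Alox15, Chil4, Slc26a4 and Fetub, and several are also counted above. Il33, an epithelial alarmin of basal cells, fell, at 1.59, 0 and 1.52 CPM against 13.6, 6.43 and 17.9 CPM (log2 fold change -2.90, SE 0.67, edgeR adjusted p = 0.021). In the closer comparisons below, 2 of 6 genes of this list rose against gland cells, with a median of 1.68. Against club cells 1 of 7 rose, Muc5ac, with a median of -0.40. In each of the 3 main clusters and every library, Alox15 was lower in the Muc5b-high cells than in the cluster's other cells. Against the other Epcam-positive cells, ion and fluid transport gave 12 rises and 2 falls among 28, with a median of 0.59. The chloride-loading cotransporter Slc12a2 was at 613, 666 and 841 CPM against 102, 101 and 70.4 CPM (log2 fold change 3.35, SE 0.20, edgeR adjusted p = 6.1e-05). Slc12a2 did not overlap between the groups. The potassium channel Kcnn4 (3.96 ± 0.35 (SE)) and carbonic anhydrase Car2 (3.86 ± 0.52 (SE)) rose, and the basal cell water channel Aqp3 fell (-2.88 ± 0.62 (SE)). Cftr, the chloride channel, was at 7.94, 2.97 and 15.2 CPM against 5.80, 3.31 and 4.89 CPM and did not pass (log2 fold change 1.37, SE 0.46, edgeR adjusted p = 0.078). Granule exocytosis gave 8 rises and 2 falls among 34, beside 9.52% and 8.28% of all genes. Without the composition scaling it gave 5 rises and 7 falls, beside 998 and 4123 of all 17442 genes. The synaptotagmin Syt7 (2.91 ± 0.70 (SE)), its relative Sytl2 (1.84 ± 0.12 (SE)) and the muscarinic receptor Chrm3 (1.59 ± 0.18 (SE)) rose, and the kinase substrate Marcks, known for mucin release, fell (-1.54 ± 0.16 (SE)). The call of Snap23 was lost without the composition scaling (edgeR adjusted p = 0.058). The calls of Aqp3 and Snap23 were lost without library 1 or 2, the call of Il33 without library 1 or 3, and the call of Syt7 without library 2.

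Notch signalling holds secretory fate in airway epithelium, and its genes moved both ways. With the composition scaling 6 of 32 genes rose and 5 fell, beside 9.52% and 8.28% of all genes. Without it 1 rose and 10 fell, beside 998 and 4123 of all 17442 genes, so which of the smaller changes passed depends on the scaling. The falls were the receptor Notch1, at 6.35, 2.97 and 15.2 CPM against 80.7, 77.5 and 88.5 CPM (log2 fold change -2.84, SE 0.29, edgeR adjusted p = 0.00058), the ligands Jag1 (-1.31 ± 0.28 (SE)), Jag2 (-2.71 ± 0.60 (SE)) and Dll1 (-2.60 ± 0.63 (SE)), and the coactivator Maml2. In each library Notch1 was lower in the Muc5b-high cells by a wide margin. In the club cell-like and Tff2-rich clusters low Notch1 was not particular to them. Per 10,000, it was at 0.0339, 0.0581 and 0.0491 in those of the club cell-like cluster and 0.0645, 0.0638 and 0.0531 in its other cells. In the Tff2-rich cluster these levels were 0.0875, 0 and 0.118 and 0.117, 0.0342 and 0.110. Against gland cells 0 of 22 Notch genes tested passed, beside 1.66% of all genes, and against club cells 0 of 17, beside 2.29%. With so few calls over all genes, these counts do not show that Notch levels were alike. Notch3 was at 34.4, 25.2 and 24.4 CPM against 18.9, 17.7 and 20.1 CPM (log2 fold change 1.01, SE 0.20, edgeR adjusted p = 0.011). Notch2 was at 150.3, 74.2 and 114 CPM against 84.9, 68.1 and 74.4 CPM (log2 fold change 1.02, SE 0.22, edgeR adjusted p = 0.017). The call of Notch2 was lost without the composition scaling (edgeR adjusted p = 0.075), as were those of the Deltex genes Dtx4 and Dtx3l, and the raw Notch2 levels of the groups overlapped. The call of Jag1 was lost without library 1, the calls of Dll1 and Notch3 without library 1 or 2, the call of Notch2 without library 1, 2 or 3, and the call of Jag2 without library 2. Notch genes without library 1, 2 or 3 gave 1, 0 and 2 rises and 2, 2 and 4 falls.

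Many basal, squamous and ciliated genes fell. Of 15 basal genes 11 fell and 0 rose, with a median of -2.13. Trp63, the basal cell master factor, was at 10.6, 19.3 and 185 CPM against 556, 565 and 704 CPM (log2 fold change -2.73, SE 0.79, edgeR adjusted p = 0.047), and the laminin chain Lamb3 at 1.59, 1.48 and 23.6 CPM against 125, 126 and 129 CPM (log2 fold change -3.41, SE 0.57, edgeR adjusted p = 0.0052). Library 3, whose Muc5b-high cells also had the most Krt5, was the highest for both. Of 18 squamous suprabasal genes 8 fell and 1 rose, with a median of -2.17, or -1.94 with 1 gene set to its bound, and without the composition scaling 12 fell and 0 rose. The keratin Krt13 was at 11.6, 8.91 and 42.7 CPM against 446, 263 and 526 CPM (log2 fold change -3.86, SE 0.46, edgeR adjusted p = 0.0012). All 12 ciliated genes fell, with a median of -3.07, for example the ciliogenesis factor Foxj1 at 3.18, 1.48 and 1.52 CPM against 53.8, 32.9 and 19.7 CPM (log2 fold change -3.55, SE 0.60, edgeR adjusted p = 0.0053), and genes of cilia were among the largest falls of all, such as Rp1 (-7.18), Cfap54 (-6.08) and Hydin (-5.12). The neuroendocrine granin Scg2 had 0 UMIs in the Muc5b-high cells and was at least 19.9-fold lower, against a floor of 3 counts over the group. Tg, the thyroglobulin of thyroid follicles, was at 3.18, 4.45 and 3.81 CPM against 263, 239 and 24.1 CPM (log2 fold change -5.21, SE 1.14, edgeR adjusted p = 0.017). Of 20 cell cycle genes 3 fell and 0 rose, beside 8.28% and 9.52% of all genes. Mki67 was at 0.529, 1.48 and 3.05 CPM against 17.7, 7.38 and 36.2 CPM (log2 fold change -3.29, SE 0.88, edgeR adjusted p = 0.036). The calls of Trp63, Scg2 and Tg were lost without library 1 or 2, the call of Mki67 without library 1 or 3, and the calls of Lamb3, Foxj1, Rp1 and Cfap54 without library 2. Basal genes without library 1, 2 or 3 gave 0, 0 and 0 rises and 5, 1 and 14 falls. Ciliated genes without library 1, 2 or 3 gave 0, 0 and 0 rises and 7, 3 and 12 falls. Squamous genes without library 1, 2 or 3 gave 0, 0 and 0 rises and 5, 4 and 10 falls.

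Of the club cell list, 9 of 15 genes rose and 0 fell, with a median of 1.01, and of the gland acinar list 4 of 8 rose and 0 fell, with a median of 2.39. Scgb3a2 was at 5593, 2853 and 2982 CPM against 684, 393 and 485 CPM (log2 fold change 3.30, SE 0.36, edgeR adjusted p = 0.00079). Azgp1, a secreted gland glycoprotein, was at 20.6, 80.1 and 46.5 CPM against 3.26, 2.85 and 1.73 CPM (log2 fold change 4.54, SE 0.50, edgeR adjusted p = 0.00079). Genes of both lists thus rose in the same sums, which hold cells of the club cell-like and the Tff2-rich cluster. The club list's Hp had 60.0% of its UMIs in 1 cell. Of the non-epithelial lists, 0 of 7 endothelial, 0 of 7 muscle satellite and 0 of 10 leukocyte genes passed, 1 of 7 fibroblast genes fell, and of 7 pericyte genes Notch3 rose and Acta2 fell. The summed level of the 13 leukocyte genes was 103, 4620 and 4.57 CPM in the Muc5b-high cells of libraries 1, 2 and 3, against 120, 22.4 and 12.5 CPM in the others. Library 2 thus stood apart in leukocyte RNA, with C1qa, Cd3e, Cd3d and Trac at 0 in all Muc5b-high cells, and the part of this RNA in the results was not tested. Alox5ap, the only called gene of the 7 tuft genes tested, had 67.7% of its UMIs in 1 cell, and of its 57, 137 and 7 UMIs by library most of the first 2 lay in the scattered cells. The ionocyte list gave 0 calls among 7, the neuroendocrine list 2 falls among 10 and the myoepithelial list 3 falls among 6. The thyroid list gave 1 rise and 2 falls among 6, and the dissociation response 2 falls among 15. Over all genes 9.52% rose and 8.28% fell. The call of Hp was lost without library 1, 2 or 3, and the call of Alox5ap without library 2 or 3.

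A closer comparison was with gland acinar cells, the 399 kept barcodes with at least 30 per 10,000 of the summed gland genes, 142, 73 and 184 by library. Muc5b was within the reach of both groups: 110 of the 399 also passed the Muc5b limits, and summed Muc5b over all 399 was at 1883, 2320.4 and 944 CPM. In all 165 of 9933 genes passed, 1.66%, with 83 higher (0.836%) and 82 lower (0.826%) in the Muc5b-high cells. With the library as a block, because each library is one pool of larynges, 427 genes passed, 252 higher and 175 lower, and without library 2 only 1 did, Kcnj16. Without the composition scaling 197 passed, 74.1% of them higher, against 50.3% with it. A scaling shift of -0.21 applies to all fold changes here.

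Several of the genes higher in the Muc5b-high cells than in gland cells were those at high levels in the third cluster. Muc5ac was at 58.2, 187 and 576 CPM against 2.80, 1.04 and 2.48 CPM (log2 fold change 6.59, SE 0.87, edgeR adjusted p = 0.0075). St6galnac1 was at 38.6, 119 and 121 CPM against 0.561, 2.08 and 0.413 CPM (log2 fold change 6.51, SE 0.65, edgeR adjusted p = 0.0056). Kcnj16 was at 70.9, 92.0 and 136 CPM against 2.24, 0 and 2.89 CPM (log2 fold change 5.32, SE 0.41, edgeR adjusted p = 0.00083). Every library of Muc5b-high cells was above every gland library for these 3 genes, Kcnj16 having been found in 36 of the 282 cells. Itln1 (4.80 ± 0.59 (SE)), the prostaglandin synthase Hpgds (3.99 ± 0.56 (SE)), the ferlin Fer1l6 (3.67 ± 0.44 (SE)), Tff1 (3.49 ± 0.68 (SE)) and Bpifb2 (6.71 ± 1.09 (SE)) completed the largest rises. Muc19 rose as well (log2 fold change 2.15, SE 0.41, edgeR adjusted p = 0.033). In contrast Tff2, at 11089, 11039 and 3631 CPM in gland cells, did not pass (log2 fold change 1.84, SE 0.52, edgeR adjusted p = 0.15), nor did Gp2, at 985, 1993 and 889 CPM (log2 fold change 0.33, SE 0.39, edgeR adjusted p = 0.88), Spdef (log2 fold change 0.92, SE 0.31, edgeR adjusted p = 0.25) or Agr2 (log2 fold change 1.08, SE 0.29, edgeR adjusted p = 0.12). These failures to pass do not show that the levels are alike, since Tff2 was higher in each library of Muc5b-high cells. They are also from the fit without the library block, in which fewer genes passed. Of 47 folding genes 1 rose, Ern2, and of 35 O-glycosylation genes 3 rose, Galnt6, St6galnac1 and Fut2. The calls of Tff1 and Bpifb2 were lost without library 1 or 2, and the calls of Muc5ac, St6galnac1, Itln1, Hpgds and Fer1l6 without library 2.

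Secreted gland products were among the largest falls. The gastric-type lipase Lipf was at 21.2, 4.45 and 219.6 CPM in the Muc5b-high cells and 21204, 39436 and 32454 CPM in gland cells (log2 fold change -8.85, SE 1.17, edgeR adjusted p = 0.0075). Sbpl, a spermine-binding-like secreted protein, was at 229.8, 10.4 and 134 CPM against 17316, 21170.0 and 37585 CPM (log2 fold change -7.83, SE 0.94, edgeR adjusted p = 0.006). Neither overlapped, and 43.2% of the Lipf and 64.0% of the Sbpl UMIs of the Muc5b-high cells were in 1 cell. Odam had 0 UMIs in the Muc5b-high cells against 19.1, 66.6 and 26.5 CPM in gland cells and was at least 40.5-fold lower. The antimicrobial enzyme lactoperoxidase, Lpo (-6.21 ± 0.79 (SE)), the antiprotease-like Wfdc18 (-4.46 ± 0.81 (SE)), the integrin Itgb8 (-3.78 ± 0.41 (SE)), the peptidase Mme (-3.78 ± 0.46 (SE)) and Ccn2 (-3.50 ± 0.48 (SE)) fell. Bhlha15 also fell against gland cells (log2 fold change -2.22, SE 0.43, edgeR adjusted p = 0.033), as did Sox9 (-1.35), Elf5 (-2.15) and the potassium channel Kcnma1 (-3.33 ± 0.46 (SE)). The rule sets these groups apart by gland genes, so low gland products in the Muc5b-high cells are close to the choice of the cells. The call of Lipf was lost when gland cells were matched on UMI count (edgeR adjusted p = 0.12). The calls of Lpo and Ccn2 were lost without library 1 or 2, the calls of Lipf, Sbpl, Odam, Itgb8 and Mme without library 2, and the call of Wfdc18 without library 2 or 3.

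The other comparison was with the 216 club cells that had at least 50 per 10,000 of Scgb1a1 and a gland sum under 30, 87, 44 and 85 by library, 83 of which passed the Muc5b limits. Here 194 of 8483 genes passed, 2.29%, with 161 higher (1.90%) and 33 lower (0.389%). With the library as a block 507 genes passed, 326 higher and 181 lower. Leaving out library 1, 2 or 3 left 57, 66 and 92. Without the composition scaling, which shifts fold changes by -0.19, 266 passed and 95.9% were higher, against 83% with it.

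Several genes at high levels in the Muc5b-high cells of the Tff2-rich cluster were among the largest rises against club cells. Muc19 had 0 UMIs in club cells and was at least 166-fold higher in the Muc5b-high cells. Lman1l, at 167, 267 and 227 CPM, was at least 163-fold and Crisp3, at 172, 40.1 and 273 CPM, at least 146-fold higher than the floor of 3 counts over the club cells, which had 0 UMIs of either. Smgc was at least 25.9-fold and the T cell development gene Themis at least 19.1-fold higher by the same floor. Tff1 was at 1186, 1095 and 1037 CPM against 0.957, 0 and 1.36 CPM (log2 fold change 10.03, SE 0.37, edgeR adjusted p = 1.1e-07). St6galnac1 was at 38.6, 119 and 121 CPM against 0.957, 0 and 0 CPM (log2 fold change 7.24, SE 0.82, edgeR adjusted p = 0.00084). None of these genes overlapped between the groups. Tff2 (log2 fold change 6.34, SE 0.38, edgeR adjusted p = 7e-06), Gp2 (log2 fold change 6.46, SE 0.38, edgeR adjusted p = 7e-06), Spdef (log2 fold change 2.63, SE 0.39, edgeR adjusted p = 0.0047), Agr2 (log2 fold change 2.25, SE 0.26, edgeR adjusted p = 0.00098) and Creb3l1 (log2 fold change 1.77, SE 0.24, edgeR adjusted p = 0.0029) were higher too. Of 47 folding genes 11 rose and 0 fell, and of 33 O-glycosylation genes 10 rose and 0 fell, with medians of 0.59 and 0.58 beside -0.00287 over all genes. Slc12a2 was at 104, 95.9 and 138 CPM in club cells (log2 fold change 2.46, SE 0.19, edgeR adjusted p = 3.7e-05). The call of Crisp3 was lost without library 1, and the call of Smgc without library 1 or 2.

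Of the 15 club genes tested 6 fell and 0 rose. The rule sets these groups apart by Scgb1a1, so lower club genes in the Muc5b-high cells are close to the choice of the cells. Scgb3a2 was at 5593, 2853 and 2982 CPM in the Muc5b-high cells and 11425, 13808 and 10249 CPM in club cells (log2 fold change -1.81, SE 0.32, edgeR adjusted p = 0.013). Scgb3a2 was lower in every library, and its call was lost without library 2 or library 3. The sulfotransferase Sult1d1 (-1.63 ± 0.33 (SE)), the cholecystokinin receptor Cckar (-2.16 ± 0.38 (SE)) and the fatty acid receptor Ffar4 (-1.84 ± 0.33 (SE)) fell. So did Vpreb3 (-2.18), the collagen chain Col4a6 (-1.71), the ubiquitin ligase Rnf186 (-1.70) and Hmgcll1 (-1.66). Pigr (log2 fold change 0.14, SE 0.25, edgeR adjusted p = 0.89), Bpifa1 (log2 fold change -0.87, SE 0.38, edgeR adjusted p = 0.36) and Reg3g (log2 fold change 1.02, SE 0.29, edgeR adjusted p = 0.1) did not pass. These 3 values are from the fit without the library block, in which fewer genes passed, and do not show that the levels are alike. The call of Col4a6 was lost without library 1, the call of Cckar without library 1 or 2, the calls of Vpreb3 and Hmgcll1 without library 1, 2 or 3, the call of Rnf186 without library 1 or 3, the call of Ffar4 without library 2, and the call of Sult1d1 without library 2 or 3.

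Lrig1, which encodes an ErbB-restraining membrane protein, drives the Cre of these mice, and its detection was compared last. A Lrig1 UMI was found in 31.7, 22.0 and 40.4% of the Muc5b-high cells of libraries 1, 2 and 3, with 95% Wilson intervals of 24.1 to 40.4, 12.8 to 35.2 and 31.6 to 49.8, and in 52.2, 66.2 and 59.8% of the other Epcam-positive cells. The groups did not overlap. The mean was 31.4% ± 9.19 against 59.4% ± 7.02 (SD, n = 3), a difference of -28.0 ± 14.0 percentage points, lower in 3 of 3 libraries (two-sided exact permutation test, p = 0.25, the smallest that 3 pairs allow). With each cell thinned to 5000 UMIs the shares were 14.7%, 11.4% and 21.3% against 30.4%, 34.3% and 34.2%, over 102, 34 and 75 Muc5b-high cells and 5838, 4729 and 14836 others, and the mean difference was -17.2 points. The Muc5b-high cells differed among themselves, with a Lrig1 UMI in 31.1% of the club cell-like, 28.0% of the Tff2-rich and 63.6% of the 22 third-cluster cells, whose median UMI counts were 12354.5, 6893 and 21092. Per 10,000, Lrig1 was at 0.372, 0.0581 and 0.442, then 0.131, 0.417 and 0.590, then 1.66, 0.741 and 0.784 in these clusters. Set against the summed level of the other Epcam-positive cells (80.1, 89.7 and 92.6 CPM), the third cluster was higher in library 1 and lower in libraries 2 and 3. The cells of the third cluster without high Muc5b were at 1.07, 1.21 and 1.20 per 10,000. In the other secretory cells the share was 27.5, 27.4 and 32.6% of gland and 28.7, 22.7 and 25.9% of club cells, unthinned, and in fibroblasts it was 26.4, 33.3 and 33.3%. In summed counts Lrig1 was at 38.1, 34.1 and 56.4 CPM against 80.1, 89.7 and 92.6 CPM (log2 fold change -0.62, SE 0.15, edgeR adjusted p = 0.025). Its call was lost with a limit of 10 Muc5b UMIs per 10,000 (edgeR adjusted p = 0.067) and with the barcodes holding all 4 exclusion genes kept (0.062). Neither did Lrig1 pass against gland (log2 fold change 0.02, SE 0.20, edgeR adjusted p = 0.99) or club cells (log2 fold change -0.14, SE 0.28, edgeR adjusted p = 0.91), both in the fit without the library block.

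Of 14 genes of the Lrig and ErbB families tested against the other Epcam-positive cells, 5 fell and 2 rose, beside 8.28% and 9.52% of all genes. The median was -0.49, or -0.29 with the 2 genes that had a group at 0 set to their bounds. Without the composition scaling 7 fell and 2 rose. Lrig3 was at 30.7, 29.7 and 43.5 CPM against 86.8, 102 and 96.5 CPM (log2 fold change -1.05, SE 0.14, edgeR adjusted p = 0.0022), and the receptor Egfr at 63.0, 47.5 and 140.3 CPM against 319, 289.9 and 319 CPM (log2 fold change -1.49, SE 0.28, edgeR adjusted p = 0.0095). Both were lower in every library, with no overlap. The ligands went both ways: Hbegf fell (-2.10 ± 0.42 (SE)), as did Areg, whereas Egf was at 17.5, 17.8 and 11.4 CPM against 2.65, 2.83 and 2.23 CPM (log2 fold change 3.01, SE 0.34, edgeR adjusted p = 0.00092) and Btc rose (1.64 ± 0.34 (SE)). The receptor Erbb4 did not pass against this mixture (log2 fold change 1.01, SE 0.41, edgeR adjusted p = 0.14) but was lower than in gland (log2 fold change -1.53, SE 0.33, edgeR adjusted p = 0.047) and club cells (log2 fold change -1.32, SE 0.29, edgeR adjusted p = 0.039). The calls of Lrig1 and Egfr were lost without library 1 or 2, the call of Btc without library 1, 2 or 3, and the call of Hbegf without library 2.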

How the data were processed

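Three-prime single-cell libraries (10x) from sorted laryngeal cells were read from the filtered UMI counts that the authors deposited. Per the submitters' processing notes, the authors aligned and counted reads with Cell Ranger 8.0.1 on mm39. The limits on genes and UMIs follow the study, whose wording exchanges the 2 terms, and they were read as 500 to 8000 genes and 1000 to 40000 UMIs. The Muc5b-high cells and the gene lists were chosen with earlier results of these data known. Raw UMI counts were summed per library and cell group and tested with edgeR 4.0.16 (filter on low counts, TMM scaling, quasi-likelihood test, Benjamini-Hochberg adjustment over all genes, threshold 0.05) in R 4.3.3, with DESeq2 1.42.0 as an alternative. The same cells enter every comparison, and gland and club cells with an Epcam UMI are also among the other Epcam-positive cells, so the comparisons share sums. Levels in CPM are from raw sums and carry no composition scaling. Cells were clustered with scanpy 1.11.5 and leidenalg 0.10.2 (2000 variable genes without the rule genes, 15 components, 15 neighbours, resolution 1), without integration of libraries. Doublets were scored against simulated doublets at 0.4% per 1000 barcodes, 4851 barcodes were called, and they were kept in the main analysis and left out as an alternative.

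Each library is one pool of larynges, and within a library deviations of the sums from the group means correlated in every library (0.207 to 0.261 against other Epcam-positive cells, 0.170 to 0.390 against gland cells and 0.147 to 0.286 against club cells), so the library number pairs the sums and a fit with it as a block was run. Nothing in the labels says whether mice were shared between pools, and p-values measure the spread between these 3 libraries. Genes named in the text are the 10 largest rises and 10 largest falls against other Epcam-positive cells that passed the threshold, had a mean of at least 10 CPM and moved one way in all 3 libraries, up to 4 rises and 4 falls of at least 5 CPM from each list, 8 and 8 in the other comparisons, and Spdef, Agr2 and Gp2, leaving out Gm and Rik symbols. One gene that met this rule is not reported here. Other genes with values were chosen after their values were seen. On simulated data with 200 changed genes, 4-fold changes were recovered in 89.0% of cases against other Epcam-positive cells, 89.0% against gland cells and 91.0% against club cells, and 2-fold changes in 18.0%, 37.0% and 48.0%. Gene coordinates are from the GRCm39 annotation and promoter windows from RefSeq on GRCm38.p6, and the 2 builds were not converted. There were 0 columns of samples outside this series.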

Additional observations from a re-analysis of the deposited data

Results flagged for a closer look

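Among barcodes that the rule left out for holding UMIs of all 4 of Krt5, Ltf, Scgb3a1 and Dcn, 52 passed every other limit for Muc5b-high cells, 13, 2 and 37 in libraries 1, 2 and 3. They were set apart because they lie outside every comparison and carry the Muc5b signal, and with such barcodes kept the share of Muc5b-high cells was 0.725% of kept barcodes. A further 47 barcodes over 40000 UMIs or 8000 genes passed the Muc5b, gland and Scgb1a1 limits. Neither set was analysed beyond these counts.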

How the results depend on the processing

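Against other Epcam-positive cells, 3104 genes passed, 5121 without composition scaling and 975 to 2492 with 1 library left out. Against gland cells 165 passed, 702 with no filter on low counts, 80 with gland cells matched on UMI count, 274 with at least 10 Muc5b UMIs per 10,000 in the Muc5b-high cells, and 1 to 64 with 1 library left out. Against club cells 194 passed, 669 with no filter, 324 without called doublets, 667 with the stricter Muc5b limit, and 57 to 92 with 1 library left out. The share of Muc5b-high cells was 0.730% of kept barcodes, 0.993% of all barcodes with at least 500 genes and 0.488% with the stricter Muc5b limit, and 0.605% to 0.840% with 1 library left out. The 2 clusters with the most Muc5b-high cells, in the main setting the club cell-like and Tff2-rich ones, held 81.1% of them on average over libraries. Without called doublets this share was 87.3%. At resolution 2 the 2 clusters with the most held 60.0%, and they were not matched to the named ones.

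With the library as a replicate block, 4366 genes passed against other Epcam-positive cells, 427 against gland cells and 507 against club cells, and the block took the call from 0 named genes. Over 130 named results and 15 settings, 1776 of 1941 values kept their direction and side of the threshold, 165 kept the direction only, and 0 turned direction. All settings left 55 of the 130 unchanged in call, and 63 lost their call without library 2. Library 2 had 50 Muc5b-high cells at a median of 6651.5 UMIs, and the part of cell number and depth in these results was not tested.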
